A study of Mus musculus with 25 samples.

Results

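The genes examined were 10 of the 54752 genes in the count tables, the ligands, receptors, inhibitors and targets of TGF-beta and activin signalling: *Tgfb1*, *Tgfb2*, *Tgfb3*, *Inhba*, *Inhbb*, *Tgfbr1*, *Tgfbr2*, *Fst*, *Pmepa1* and *Tgfbi*. They were picked by symbol, because *Pmepa1* was among the genes that rose most with a high-fat diet (HFD) in inguinal white adipose tissue (iWAT). The diet difference in iWAT is therefore given for these genes as a description, by fold and SE without p-values, and nothing is read from the calls made in it.

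TGF-beta ligands are secreted in a latent form and, once released, bind a type II receptor (*Tgfbr2*) that activates a type I receptor (*Tgfbr1*). The type I receptor phosphorylates Smad2 and Smad3, which enter the nucleus and change transcription. Activins, dimers of the *Inhba* and *Inhbb* products, signal through related receptors to the same Smads, and follistatin, encoded by *Fst*, binds activins and keeps them from their receptors. In fat the pathway is known for its part in matrix deposition and for restraining the formation of adipocytes.

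RNA was sequenced from epididymal white adipose tissue (eWAT, 14 libraries) and iWAT (11 libraries) of male C57BL/6N mice. In eWAT, 4 libraries came from wild type (WT) mice on a normal diet (ND), 5 from WT mice on the HFD and 5 from *Acod1*-/- mice on the HFD, and in iWAT the numbers were 3, 5 and 3. *Acod1*-/- mice carry the em1(IMPC)J/J allele in every tissue, so the deletion was not limited to 1 cell type, and WT mice were littermates from crosses of heterozygotes. All mice were housed individually from 5 weeks of age, when the diets began. Fat supplied 60% of the energy in the HFD, and feeding lasted 16 weeks, except that the labels give 17 and 18 weeks for *Acod1*-/- iWAT libraries 2 and 3. No ND-fed *Acod1*-/- library was analysed here, so what the deletion does on the ND is not covered.

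Each library had 31.41 M to 52.34 M reads counted on genes (median 42.09 M). The deleted gene was close to absent in every group, with at most 9 reads in any library, so its counts did not check the genotypes. Levels below are CPM, reads scaled to a common library total, after TMM normalization over the 25 libraries, and the p-values measure the spread between these libraries. Some libraries held other tissue. Epididymis markers (5 genes) summed to 7940 CPM in ND-fed eWAT library 2 and 1057 CPM in *Acod1*-/- eWAT library 5, skeletal muscle markers (4 genes) to 6772 CPM in ND-fed iWAT library 1, and epithelial markers (5 genes) to 529 CPM in *Acod1*-/- iWAT library 2. B and T cell markers (7 genes) summed to 522 to 781 CPM in the ND-fed iWAT libraries, against 4.25 to 68.1 in HFD-fed WT and 2.26 to 8.65 in *Acod1*-/- iWAT. Without those 4 libraries the numbers of genes called below were 7, 6, 5 and 0 in the diet and genotype comparisons of eWAT and iWAT, as with them. The file headers carry library numbers of 2 series, and all ND-fed libraries are in the higher-numbered one together with 1 library of each HFD-fed group, so that diet and number series can hardly be told apart.

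Genes were called at an adjusted p under 0.1 (edgeR's quasi-likelihood test, Benjamini-Hochberg over all genes tested). All 10 genes passed the filter of a mean of 1 CPM in eWAT and 9 in iWAT, where *Inhba* fell below it. In eWAT, 7 of the 10 genes rose on the HFD in WT mice and none fell. Over all 14936 genes tested there, 24.8% were called higher and 26.9% lower. *Tgfb1*, *Tgfbr1*, *Tgfbr2*, *Inhbb*, *Fst* and *Tgfbi* were then lower in HFD-fed *Acod1*-/- than in HFD-fed WT eWAT, 6 of 10 against 10.8% of all genes called lower and 9.13% called higher. *Pmepa1* rose most with the diet and was not called for genotype. The median log2 fold change of the 10 genes was 0.75 for diet and -0.60 for genotype in eWAT, against -0.038 and 0.044 over all genes. Groups did not overlap for 4 genes that were higher on the HFD (*Tgfb1*, *Tgfbr1*, *Fst* and *Pmepa1*; 17.3% of all genes) and 4 that were lower in *Acod1*-/- eWAT (*Inhbb*, *Tgfbr1*, *Tgfbr2* and *Fst*; 4.37%). In iWAT, *Tgfb1* and *Inhbb* were lower in every *Acod1*-/- library (4.6% of all genes). The HFD-fed WT libraries serve in both comparisons, so a chance deviation of that group moves them in opposite directions. No gene at all was called for genotype in iWAT (0% of 14801 tested), where 16.7% of genes and 4 of the 9 (*Tgfb1*, *Tgfbr2*, *Pmepa1* and *Tgfbi*) had an unadjusted p under 0.05, and DESeq2 called *Tgfb1* and *Tgfbr2* among 1072 genes in all. The iWAT genotype comparison shares its HFD-fed WT libraries with the diet comparison by which the genes were chosen. In iWAT, 5 of the 9 genes were called higher on the HFD, where 25.9% of all genes were called higher and 24.2% lower, and since the genes were chosen with that comparison in view nothing is read from this count.

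*Pmepa1* (ENSMUSG00000038400, chromosome 2, 173224458 to 173276533, minus strand, GRCm38) encodes a membrane protein that binds Smad2 and Smad3 and dampens TGF-beta signalling, and it is itself induced by TGF-beta. In eWAT it stood at 140, 141, 135 and 52.7 CPM in ND-fed WT mice, at 285, 519, 799, 426 and 717 CPM in HFD-fed WT mice, and at 524, 1027, 588, 599.9 and 457 CPM in *Acod1*-/- mice. All 10 HFD-fed libraries lay above all 4 ND-fed ones, and the HFD groups overlapped almost entirely. On the HFD it rose 4.69-fold (log2 fold change 2.23, SE 0.36, adjusted p = 0.000739), and *Acod1*-/- differed from WT by 0.22 on the log2 scale (SE 0.32, adjusted p = 0.691). The 95% interval of that difference, by a normal approximation, ran from -0.41 to 0.85, and without *Acod1*-/- library 2 the value was -0.018.

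In iWAT *Pmepa1* stood at 143, 178 and 153 CPM on the ND, at 632, 1040, 976, 741 and 861 CPM in HFD-fed WT mice and at 633, 679 and 647 CPM in *Acod1*-/- mice. The diet difference was 5.50-fold (log2 2.46, SE 0.18). In *Acod1*-/- iWAT the log2 difference from WT was -0.40 (SE 0.16, adjusted p = 0.249), with 1 WT library at the level of the *Acod1*-/- ones and 4 above. Ordered by mean, the groups ran from HFD-fed WT iWAT (850 CPM) through *Acod1*-/- iWAT (653), *Acod1*-/- eWAT (639) and HFD-fed WT eWAT (549) to ND-fed iWAT (158) and ND-fed eWAT (117). The HFD-fed groups each overlapped the next in this order, and the ND-fed groups were separate from them. Corrected for cDNA length, *Pmepa1* was the most abundant of the 10 genes in every group, at 23.8 CPM per kb in ND-fed eWAT and 173 in HFD-fed WT iWAT.

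**Figure D1:**
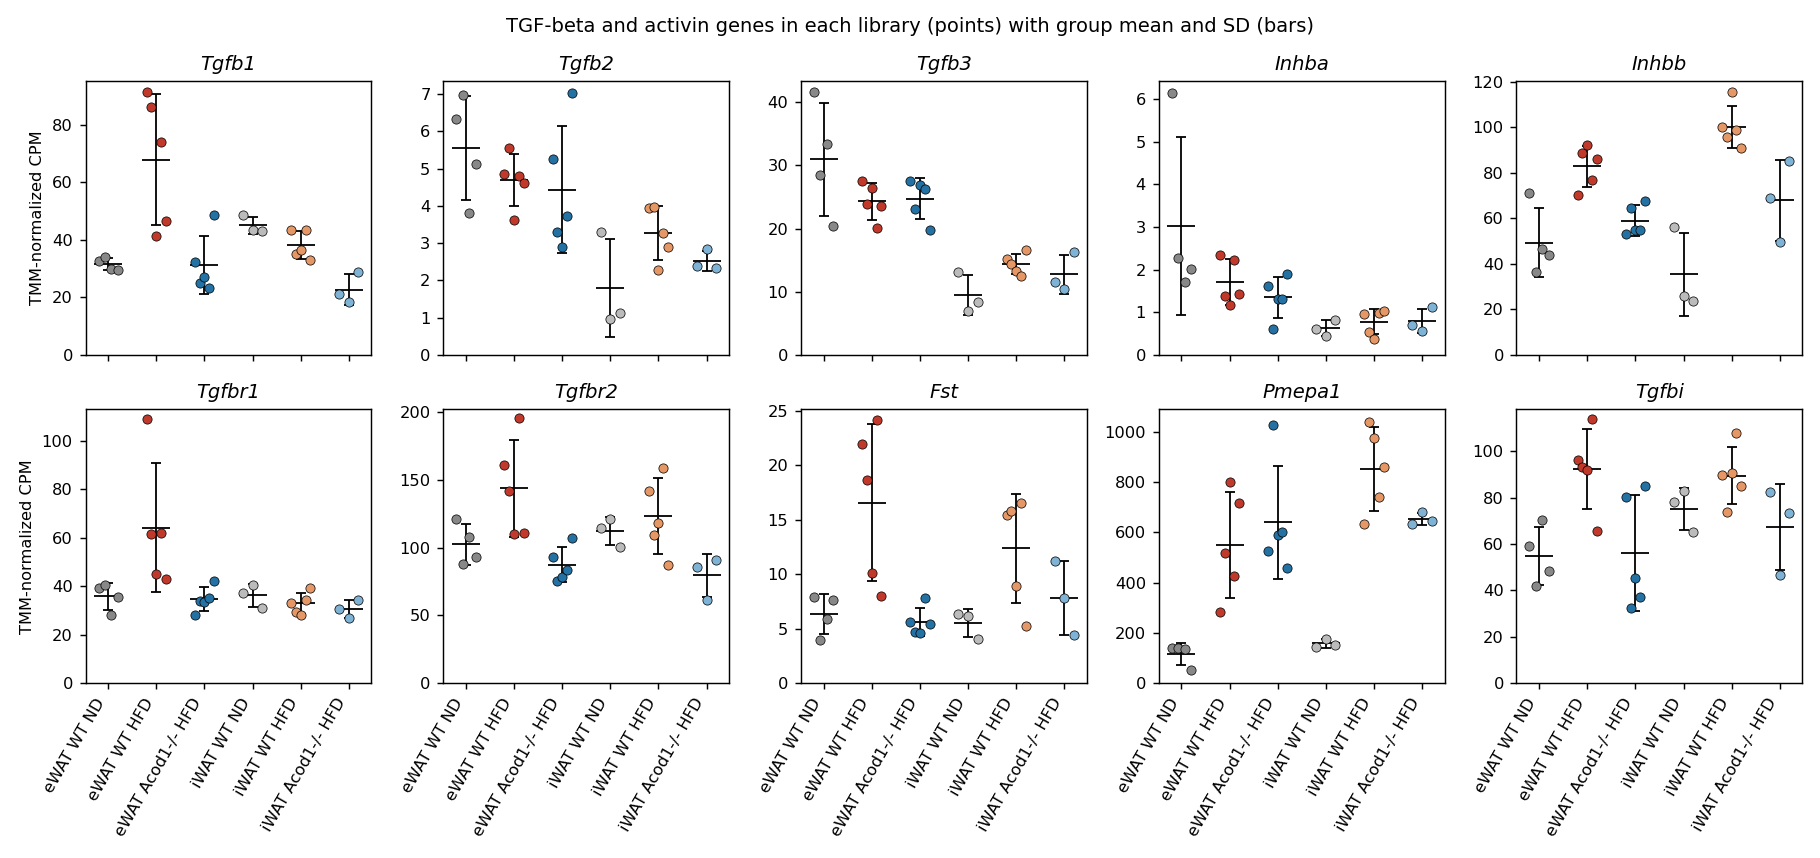
TMM-normalized CPM (linear axes from 0) of the 10 genes in each of the 25 libraries, shown as points, with the group mean (bar) and SD (whiskers). Tgfb1, Tgfbr1 and Fst stood highest in HFD-fed WT eWAT, with means of 67.9, 64.1 and 16.6 CPM, whereas Pmepa1 was high in all 4 HFD-fed groups.

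Among the ligands, *Tgfb1* (ENSMUSG00000002603, chromosome 7, 25687002 to 25705077, plus strand) stood at 32.6, 34.1, 30.0 and 29.5 CPM in ND-fed eWAT, at 91.5, 86.1, 41.4, 73.8 and 46.6 CPM in HFD-fed WT eWAT and at 32.2, 25.1, 27.1, 23.3 and 48.5 CPM in *Acod1*-/- eWAT. Every HFD-fed WT library exceeded every ND-fed one, and 4 of the 5 *Acod1*-/- libraries were within or below the ND range, the exception being library 5. *Tgfb1* rose 2.15-fold on the HFD (log2 1.11, SE 0.26, adjusted p = 0.00458) and was lower in *Acod1*-/- eWAT by 1.12 on the log2 scale, a 2.17-fold difference (log2 -1.12, SE 0.24, adjusted p = 0.0143). In iWAT it stood at 48.5, 43.6 and 43.2 CPM on the ND, at 43.3, 34.9, 36.3, 43.4 and 33.2 CPM in HFD-fed WT and at 21.04, 18.2 and 28.9 CPM in *Acod1*-/- mice. The iWAT diet difference was -0.21 (SE 0.16), with 2 HFD-fed libraries inside the ND range. All 3 *Acod1*-/- iWAT libraries lay below all 5 WT ones, with a log2 difference of -0.77 (SE 0.16) that was not called (adjusted p = 0.136). It was called without *Acod1*-/- library 3 (adjusted p = 0.0154) and without HFD-fed WT library 5 (0.0889).

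*Tgfb2* (ENSMUSG00000039239, chromosome 1, 186622792 to 186705989, minus strand) and *Tgfb3* (ENSMUSG00000021253, chromosome 12, 86056745 to 86079041, minus strand), the other TGF-beta ligands, were both higher in eWAT than in iWAT of ND-fed mice. *Tgfb3* ranged from 20.4 to 41.6 CPM in ND-fed eWAT and from 7.02 to 13.1 CPM in ND-fed iWAT, a 3.25-fold difference (log2 1.70, SE 0.23, adjusted p = 1.58e-05). In HFD-fed WT mice it was 1.69-fold higher in eWAT (log2 0.76, SE 0.18, adjusted p = 0.00839), with 20.02 to 27.6 CPM against 12.5 to 16.6. *Tgfb2* ranged from 3.81 to 6.98 CPM in ND-fed eWAT and from 0.952 to 3.30 in ND-fed iWAT (3.11-fold, log2 1.64, SE 0.39, adjusted p = 0.00368). Without ND-fed iWAT library 1, the one with muscle markers and the highest *Tgfb2* of its group, the log2 difference was 2.42. On the HFD the depot difference of *Tgfb2* was 0.52 (SE 0.30, adjusted p = 0.287). Neither gene was called for diet or genotype in eWAT (*Tgfb2* -0.25, SE 0.28, adjusted p = 0.491 for diet; *Tgfb3* -0.35, SE 0.18, adjusted p = 0.124), though *Tgfb3* was called lower on the HFD without ND-fed library 4 (adjusted p = 0.0240) or HFD-fed WT library 1 (0.0969). In iWAT the diet differences were 0.91 (SE 0.41) and 0.63 (SE 0.23), both upwards in that depot, and the first was 1.68 without ND-fed library 1.

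*Inhba* (ENSMUSG00000041324, chromosome 13, 16011851 to 16031621, plus strand), which encodes the activin A subunit, was the lowest of the 10 genes per length. It stood at 6.14, 2.27, 1.71 and 2.004 CPM in ND-fed eWAT, with library 1 far above the others, at 1.17 to 2.34 CPM in HFD-fed WT eWAT and at 0.613 to 1.89 CPM in *Acod1*-/- eWAT. The groups overlapped, and neither diet (log2 -0.83, SE 0.43, adjusted p = 0.133) nor genotype (-0.34, SE 0.41, adjusted p = 0.628) was called, diet being called only without ND-fed library 3 (0.0878). In iWAT *Inhba* had 15 to 51 reads per library, and *Acod1*-/- and HFD-fed WT means of 0.793 and 0.774 CPM did not differ detectably (two-sided exact permutation test, p = 0.946, the smallest possible being 0.0179). ND-fed iWAT had 0.624 CPM ± 0.186 (SD, n = 3). The depot difference of *Inhba* was 2.28 on the log2 scale in ND-fed mice (SE 0.51), or 1.68 without ND-fed eWAT library 1, and 1.14 in HFD-fed WT mice (SE 0.40). It is given as a description, since *Inhba* passed the filter over all libraries only through eWAT, where it was higher.

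*Inhbb* (ENSMUSG00000037035, chromosome 1, 119415465 to 119422248, minus strand), which encodes the activin B subunit and is made by adipocytes, was far more abundant than *Inhba*. In eWAT it stood at 70.9, 36.2, 46.4 and 43.9 CPM on the ND, at 70.1, 88.6, 92.1, 76.9 and 86.2 CPM in HFD-fed WT and at 53.3, 64.5, 54.9, 54.7 and 67.8 CPM in *Acod1*-/- mice. The diet groups overlapped only through ND-fed library 1, and no *Acod1*-/- library reached the WT range. It rose 1.68-fold on the HFD (log2 0.75, SE 0.17, adjusted p = 0.00394). The genotype difference was -0.49 (SE 0.16, adjusted p = 0.0582), and it was not called without HFD-fed WT library 3 (0.103) or without *Acod1*-/- library 1 (0.121), 3 (0.124) or 4 (0.123). In iWAT the values were 56.4, 25.9 and 23.9 CPM on the ND, 100.3, 95.9, 115, 98.8 and 90.8 CPM in HFD-fed WT and 68.7, 49.5 and 85.3 CPM in *Acod1*-/- mice. The diet difference was 2.90-fold (log2 1.54, SE 0.28) and rested on separate groups, and the genotype difference was -0.58 (SE 0.27, adjusted p = 0.308), again with the groups separate.

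The receptors moved with *Tgfb1* in eWAT. *Tgfbr1* (ENSMUSG00000007613, chromosome 4, 47353222 to 47414931, plus strand), the type I receptor, stood at 39.4, 40.6, 28.2 and 35.4 CPM on the ND, at 109, 61.8, 45.1, 61.8 and 42.9 CPM in HFD-fed WT and at 28.3, 33.9, 33.6, 35.1 and 42.3 CPM in *Acod1*-/- eWAT. The HFD-fed WT group was separate from both others, with library 1 far above its group. *Tgfbr1* rose 1.78-fold (log2 0.84, SE 0.24, adjusted p = 0.0128) and was lower in *Acod1*-/- (log2 -0.89, SE 0.22, adjusted p = 0.0230). In iWAT it held between 26.8 and 40.4 CPM in all 11 libraries, with differences of -0.11 (SE 0.14) for diet and -0.13 (SE 0.14, adjusted p = 0.709) for genotype.

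*Tgfbr2* (ENSMUSG00000032440, chromosome 9, 116084293 to 116175360, minus strand), the type II receptor, stood at 121, 88.1, 108 and 92.7 CPM on the ND, at 161, 142, 110.3, 195 and 110.5 CPM in HFD-fed WT and at 92.8, 75.1, 78.5, 83.2 and 107 CPM in *Acod1*-/- eWAT. The ND and HFD groups overlapped, and all *Acod1*-/- libraries lay below all WT ones on the HFD. Its rise on the HFD was the smallest called, 1.401-fold (log2 0.49, SE 0.18, adjusted p = 0.0394), and was not called without ND-fed library 4 (0.102) or HFD-fed WT library 4 (0.101). It was lower in *Acod1*-/- eWAT (log2 -0.72, SE 0.17, adjusted p = 0.0172). In iWAT the diet difference was 0.16 (SE 0.19), and the genotype difference of -0.65 (SE 0.20, adjusted p = 0.158) was called only without *Acod1*-/- library 3 (0.0654) among the libraries left out in turn.

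*Fst* (ENSMUSG00000021765, chromosome 13, 114452290 to 114458951, minus strand), the activin-binding inhibitor, stood at 7.91, 3.97, 5.87 and 7.61 CPM in ND-fed eWAT, at 21.99, 18.7, 10.1, 24.1 and 7.97 CPM in HFD-fed WT and at 5.58, 4.67, 4.58, 7.78 and 5.39 CPM in *Acod1*-/- mice. HFD-fed WT library 5, the only one of its group in the higher-numbered series, was just above the highest ND-fed library, and the other 4 were clearly above. *Fst* rose 2.61-fold (log2 1.38, SE 0.33, adjusted p = 0.00538) and showed the largest genotype difference of the 10 genes, 2.96-fold (log2 -1.56, SE 0.31, adjusted p = 0.0118). In iWAT it stood at 6.32, 6.18 and 4.02 CPM on the ND, at 15.4, 15.8, 8.90, 16.5 and 5.23 CPM in HFD-fed WT and at 11.2, 7.86 and 4.44 CPM in *Acod1*-/- mice. The iWAT library of the higher-numbered series in each HFD-fed group was its lowest, inside the ND range, and the differences were 1.20 (SE 0.40) for diet, or 0.12 (SE 0.35) with number series as a term, and -0.68 (SE 0.39, adjusted p = 0.414) for genotype.

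*Tgfbi* (ENSMUSG00000035493, chromosome 13, 56609523 to 56639562, plus strand) encodes a matrix protein induced by TGF-beta. It stood at 59.0, 41.7, 70.5 and 48.2 CPM in ND-fed eWAT, at 96.4, 93.2, 92.0, 114 and 65.7 CPM in HFD-fed WT and at 80.4, 32.5, 45.5, 37.1 and 85.1 CPM in *Acod1*-/- eWAT. *Acod1*-/- libraries 1 and 5 were within the WT range on the HFD and the other 3 below it. The rise on the HFD was 1.68-fold (log2 0.75, SE 0.28, adjusted p = 0.0460) and was not called without ND-fed library 2 (0.110) or 4 (0.109). The genotype difference was -0.72 (SE 0.26, adjusted p = 0.0902), the weakest call of the 10 genes. It was lost without ND-fed library 4 (0.106), HFD-fed WT library 1 (0.147), 2 (0.127), 3 (0.122) or 4 (0.189), or *Acod1*-/- library 2 (0.162), 3 (0.188) or 4 (0.187). In iWAT the diet difference was 0.28 (SE 0.18) and the genotype difference -0.43 (SE 0.18, adjusted p = 0.275).

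The start-proximal sequence is shown for *Tgfb1* and *Tgfbr2*, a ligand and a receptor that moved together in eWAT, and for *Tgfb2*, which was called for neither diet nor genotype there. Each is the 250 bases before the RefSeq transcription start (GRCm38.p6), 5′ to 3′ on the gene's strand, with the Smad box CAGAC, on either strand, in capitals. The windows are chr7:25686752-25687001 for *Tgfb1*, chr9:116175364-116175613 for *Tgfbr2* and chr1:186705990-186706239 for *Tgfb2*.
Tgfb1: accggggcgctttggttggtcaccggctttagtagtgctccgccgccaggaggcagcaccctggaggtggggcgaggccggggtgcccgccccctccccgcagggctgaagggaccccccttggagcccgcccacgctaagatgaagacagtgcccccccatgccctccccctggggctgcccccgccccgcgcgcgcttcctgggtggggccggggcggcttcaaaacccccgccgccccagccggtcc
Tgfbr2: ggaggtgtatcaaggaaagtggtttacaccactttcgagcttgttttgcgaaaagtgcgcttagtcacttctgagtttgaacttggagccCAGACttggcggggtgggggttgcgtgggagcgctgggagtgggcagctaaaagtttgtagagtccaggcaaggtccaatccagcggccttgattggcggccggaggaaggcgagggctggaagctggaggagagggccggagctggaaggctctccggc
Tgfb2: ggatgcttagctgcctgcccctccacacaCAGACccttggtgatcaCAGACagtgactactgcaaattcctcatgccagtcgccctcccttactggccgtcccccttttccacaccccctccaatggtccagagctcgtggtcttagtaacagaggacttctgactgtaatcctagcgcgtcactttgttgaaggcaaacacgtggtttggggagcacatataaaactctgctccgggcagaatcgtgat
The *Tgfbr2* window held 1 Smad box, the *Tgfb2* window 2 and the *Tgfb1* window no Smad box. RefSeq windows were at hand for 7 of the 10 genes, 8 windows in all, of which 4 held a Smad box, against 42.2% of the 32851 windows of all genes. The GC-rich Smad motif GGCGC was in 4 of the 8 windows, the *Tgfb1* window among them, against 10520 of the 32851. None of the 8 held the palindrome GTCTAGAC (0.167% of all windows) or the AP-1 motif TGANTCA (6.75%). A match is a description of the letters and not evidence of binding.

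**Figure D2:**
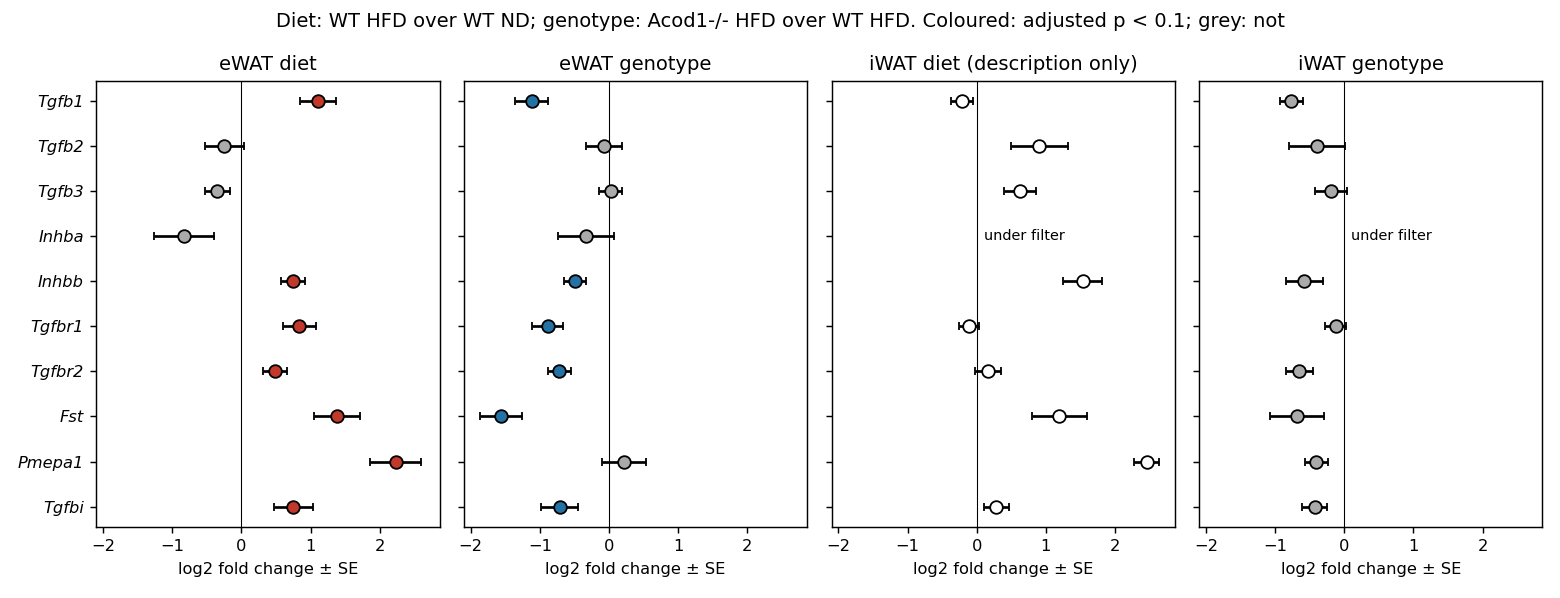
Log2 fold changes with SE (whiskers) of the 10 genes for diet (HFD over ND in WT) and genotype (Acod1-/- over WT on the HFD) in each depot. Red and blue points passed an adjusted p of 0.1, grey points did not, and white points (iWAT diet, the comparison by which the genes were chosen) are not marked by call. Pmepa1 has the largest diet difference in both depots, 2.23 and 2.46, and no called genotype difference.

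The number series bears on the diet calls in eWAT. With it as a term in the fit, *Pmepa1* (2.24, SE 0.45, adjusted p = 0.00623), *Tgfb1* (1.29, SE 0.36, adjusted p = 0.0228) and *Inhbb* (0.88, SE 0.23, adjusted p = 0.0169) were called, 3 of the 7. *Fst* (0.87, adjusted p = 0.152), *Tgfbr1* (0.74, 0.120), *Tgfbr2* (0.48, 0.177) and *Tgfbi* (0.93, 0.107) were not. The calls with the term were thus 3 of the 10 genes tested. Over all genes tested, 34.4% were called in either direction with the term, so the share among the 10 was not above it. The 6 genotype calls in eWAT were also made with the term, and with the 8 HFD-fed eWAT libraries of the lower-numbered series alone 6 were called.

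Macrophage markers moved with these genes in eWAT. The 8 markers, all detected, summed to 421 to 806 CPM on the ND, 1163 to 3848 CPM in HFD-fed WT and 326 to 1236 CPM in *Acod1*-/- eWAT. Of the 8, 7 were called higher and 1 lower with diet, and 7 were called lower in *Acod1*-/-. Fibroblast and progenitor markers (7 genes) summed to 1403 to 1730, 1876 to 2699 and 1481 to 2067 CPM in the same groups, with 5 called higher for diet and 3 lower for genotype. With number series as a term, 3 were called higher for diet and 3 lower for genotype, and the macrophage counts did not change. In bulk tissue, fewer cells of a type and less RNA per cell cannot be told apart, and the part of these cell types in the results was not tested. Within HFD-fed WT eWAT, libraries 3 and 5 had the lowest macrophage sums (1474 and 1163 CPM), the lowest *Tgfb1*, *Fst*, *Tgfbr1* and *Tgfbr2*, and the highest *Pmepa1*. *Inhbb* did not follow the macrophage sums there. It was highest in library 3 (92.1 CPM) and lowest in library 1 (70.1 CPM), which had the highest macrophage sum (3848 CPM). Within *Acod1*-/- eWAT, library 5, the one with epididymis markers, had the highest macrophage sum (1236 CPM), the highest *Tgfb1* and the lowest *Pmepa1*. *Fst* stood at 5.39 CPM in that library and was highest in library 4 (7.78 CPM).

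**Figure D3:**
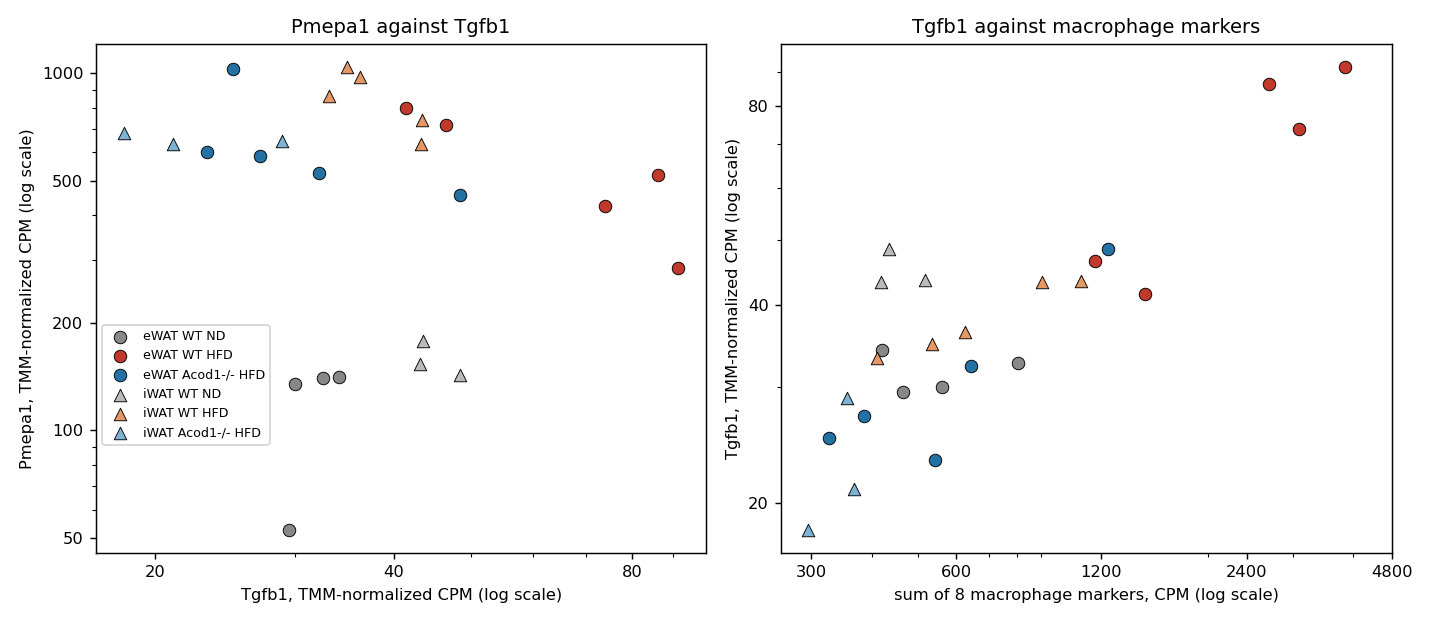
Left, Pmepa1 against Tgfb1, and right, Tgfb1 against the sum of 8 macrophage markers, all in TMM-normalized CPM on log axes, with 1 point for each of the 25 libraries coloured by group. HFD-fed WT eWAT spans 41.4 to 91.5 CPM of Tgfb1 and 1163 to 3848 CPM of macrophage markers.

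In iWAT the macrophage sums were 419 to 516 CPM on the ND, 410 to 1090 CPM in HFD-fed WT and 296 to 367 CPM in *Acod1*-/- mice, and no marker of any list was called for genotype. Adipocyte markers (7 genes) summed to 21940 to 26970 CPM in ND-fed and 38460 to 48570 CPM in HFD-fed WT iWAT, with 4 of 7 called higher. Fibroblast and progenitor markers went from 541 to 826 CPM on the ND to 1402 to 2088 CPM on the HFD (6 of 7 called higher), and endothelial markers (6 genes) from 490 to 665 CPM to 659.8 to 1050 CPM (6 of 6). Macrophage markers were called higher with diet for 6 of 8. All 7 B and T cell markers were called lower, and so were all 4 skeletal muscle markers. No muscle marker was called without the libraries that held other tissue. With number series as a term, 4 macrophage, 4 adipocyte, 4 fibroblast and progenitor and 2 endothelial markers were called higher. That fit called 6 B and T cell markers lower and no muscle marker. The part of these cell types in the iWAT diet differences was not tested.

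Between depots, with *Inhba* set aside, 2 genes were called higher in eWAT on the ND (*Tgfb2* and *Tgfb3*), where 17.5% of all 15034 genes tested were. In HFD-fed WT mice 3 were (10.8% of all genes), namely *Tgfb1* (log2 0.83, SE 0.21, adjusted p = 0.0113), *Tgfbr1* (0.96, SE 0.19, adjusted p = 0.00252) and *Tgfb3*. *Inhbb* was not called on the ND (0.48, SE 0.24, adjusted p = 0.161), but was without ND-fed iWAT library 1 (0.98, adjusted p = 0.0028) or ND-fed eWAT library 2 (0.60, adjusted p = 0.0924). *Tgfb1* on the ND (-0.52, adjusted p = 0.136) was called only without *Acod1*-/- eWAT library 5 (0.0926) among the libraries left out, and it was called with the 2 groups alone (0.0108). The diet differences of the depots, eWAT minus iWAT, were 1.34 (SE 0.32) for *Tgfb1*, 0.98 (SE 0.30) for *Tgfbr1*, -0.94 (SE 0.28) for *Tgfb3*, -1.12 (SE 0.48) for *Tgfb2*, -0.76 (SE 0.32) for *Inhbb* and -0.20 (SE 0.42) for *Pmepa1*, given as estimates because the iWAT diet difference chose the genes. ND-fed iWAT held B and T cell markers at 522 to 781 CPM, against 4.05 to 9.46 CPM in ND-fed eWAT. Their part in the depot differences was not tested. The genotype difference was not shown to differ between depots for any of the 10. The interaction was called for 1 gene in all (0.00665%), and 10.1% of genes had an unadjusted p under 0.05, among the 10 only *Tgfbr1* (-0.78, SE 0.29, adjusted p = 0.377). DESeq2 called none of the 10. All these fits treated the libraries as independent, though both depots may have come from the same mice.

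Another 54 genes of the pathway were placed in 6 lists. The lists were chosen with earlier results of these data known, so their counts are given as a description. Among them the targets moved most with diet in eWAT. Of 12 targets 9 were called higher and 2 lower, and 8 were then lower in *Acod1*-/-, against 24.8% and 26.9% of all genes for diet and 10.8% for genotype. *Timp1*, an inhibitor of matrix proteases, went from 0.907 to 2.21 CPM on the ND to 16.2 to 50.3 CPM on the HFD (log2 4.27, SE 0.66, adjusted p = 0.000598) and stood at 0.899 to 9.44 CPM in *Acod1*-/- mice (log2 -2.76, SE 0.56, adjusted p = 0.0127). *Col1a1*, a chain of type I collagen, rose by 1.65 (SE 0.34, adjusted p = 0.00264) and was lower in *Acod1*-/- (-1.39, SE 0.32, adjusted p = 0.0168). The targets that fell were *Ccn2*, a matricellular protein (-1.41, SE 0.46, adjusted p = 0.0238), and *Tagln*, an actin-binding protein of smooth muscle (-1.46, SE 0.26, adjusted p = 0.00124). Mural cell markers (5 genes) moved with these, at 797 to 998 CPM on the ND and 291 to 511 CPM on the HFD, and their part was not tested.

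In the latency and activation list, 3 genes rose and 4 fell of 10 tested, and 3 were lower in *Acod1*-/-. The diet counts lie near the shares over all genes, and with number series as a term 2 fell rather than 4. *Nrros*, which anchors latent TGF-beta1 on macrophages, rose by 1.77 in eWAT (SE 0.29, adjusted p = 0.000733), differed by -0.55 (SE 0.23) in iWAT and was lower in *Acod1*-/- (-1.41, SE 0.26, adjusted p = 0.0110). *Ltbp2*, a latent TGF-beta binding protein family member, rose by 0.73 (SE 0.11, adjusted p = 0.000568) and was lower by genotype (-0.68, SE 0.11, adjusted p = 0.0110). *Ltbp4* fell in eWAT (-0.92, SE 0.22, adjusted p = 0.0057), and *Thbs1*, an activator of latent TGF-beta, did too (-1.48, SE 0.59, adjusted p = 0.0558), while their iWAT diet differences were 0.78 (SE 0.16) and 1.59 (SE 0.64). Endothelial markers also fell in eWAT, with 5 of 6 called lower (3 with number series as a term), and their part was not tested. Of the 49 other pathway genes tested, 22 had a diet difference that differed between depots, 4 upwards in eWAT and 18 downwards, where 29.0% of all genes did. *Mstn* was among the 4, and its call is not counted as a result. In ND-fed iWAT it had a maximum of 7.02 CPM and a median of 0.0681 CPM, and muscle markers there reached 6772 CPM. The part of muscle in its depot difference was not tested.

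Among 8 other receptors, 1 rose and 3 fell (0 and 3 with number series as a term), and 2 were higher in *Acod1*-/- (9.13% of all genes). *Acvr1c*, the type I receptor ALK7 of adipocytes, averaged 256 CPM ± 45.7 (SD, n = 4) on the ND, 90.4 ± 27.3 (n = 5) on the HFD and 153 ± 15.1 (n = 5) in *Acod1*-/- eWAT, with no overlap between groups. Its log2 differences were -1.50 (SE 0.20, adjusted p = 0.000307) and 0.76 (SE 0.19, adjusted p = 0.0233), opposite in sign to those of *Tgfb1*. Of the 7 adipocyte markers, *Plin1* (-0.66) and *Lipe* (-0.63) were called lower and *Lep* higher with diet, and *Plin1* (0.67), *Lipe* (0.75) and *Adipoq* (0.67) were called higher in *Acod1*-/- eWAT. With number series as a term, 0 adipocyte markers were called lower and 1 higher with diet. The 7 summed to 21420 to 32830 CPM on the ND, 19170 to 40960 on the HFD and 33780 to 41420 in *Acod1*-/- eWAT, and their part was not tested. *Acvr1*, the type I receptor ALK2, showed the same signs (-1.004, SE 0.13, adjusted p = 0.000273, and 0.33, SE 0.12, adjusted p = 0.0885). None of the 3 Smads was called in eWAT with all libraries. *Smad3* had 0.19 (SE 0.15, adjusted p = 0.324) for diet and -0.35 (SE 0.14, adjusted p = 0.128) for genotype. Without the 4 libraries that held other tissue, 1 Smad was called lower in *Acod1*-/- eWAT.

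Of 11 inhibitors, 2 rose and 1 fell, lower shares than over all genes, and 1 was lower in *Acod1*-/-, near the share over all genes. Without the 4 libraries that held other tissue, 2 inhibitors rose and 2 fell, and 3 were lower and 1 higher in *Acod1*-/-. That fit also called 9 targets and 4 latency genes lower in *Acod1*-/- eWAT. *Ldlrad4*, which like *Pmepa1* binds Smads, rose by 1.24 (SE 0.22, adjusted p = 0.0012) and had a genotype difference of -0.16 (SE 0.20, adjusted p = 0.640). *Tgif1*, a transcriptional corepressor, rose by 1.09 (SE 0.34, adjusted p = 0.0218) and was lower in *Acod1*-/- (-1.50, SE 0.32, adjusted p = 0.0144). *Smurf1*, a ubiquitin ligase, fell by 0.62 (SE 0.14, adjusted p = 0.00369). *Smad7* (-0.49, adjusted p = 0.161), *Skil* (-0.07, adjusted p = 0.789) and *Fstl3* (0.40, adjusted p = 0.384) were not called for diet. Their genotype differences in eWAT were -0.58 (adjusted p = 0.1555), -0.38 (0.1938) and 0.42 (0.4382). In iWAT those were -1.03 (adjusted p = 0.2132), -0.81 (0.2149) and -0.50 (0.5765), and none of these was called. Of 5 other ligands tested, *Gdf3* and *Mstn*, named after their values were seen, passed the filter only through HFD-fed libraries, so their calls are not counted as results. *Gdf3* had 0 to 0.127 CPM on the ND, 2.66 to 8.76 CPM on the HFD and 0 to 1.41 CPM in *Acod1*-/- eWAT. *Mstn* had 0 to 0.125, 1.44 to 3.98 and 0 to 5.85 CPM.

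In iWAT the diet comparison called 10 of 12 targets higher and none lower, 6 of 11 inhibitors higher and 1 lower, 4 of 8 receptors and 5 of 11 latency genes higher, 1 latency gene and 1 of 2 ligands lower, and no Smad, where 25.9% of all genes were called higher. With number series as a term the counts called higher were 8 targets, 6 inhibitors, 2 receptors and 3 latency genes. *Fstl3*, a follistatin relative, stood at 1.69 to 3.98 CPM on the ND and 14.3 to 25.3 CPM on the HFD (log2 2.69, SE 0.46), *Col1a1* differed by 1.80 (SE 0.24), *Ldlrad4* by 1.64 (SE 0.29), *Ltbp3* by 0.88 (SE 0.18), *Tgfbr3* by 0.63 (SE 0.13) and *Smad7* by -0.83 (SE 0.35). *Acvr1c* differed by -0.09 (SE 0.20) there. None of the 54 genes was called for genotype in iWAT by edgeR, 14 had an unadjusted p under 0.05 (16.7% of all genes), and DESeq2 called 4 among 1072 genes in all. Without *Acod1*-/- iWAT library 3, edgeR called 12 among 2664.

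**Figure D4:**
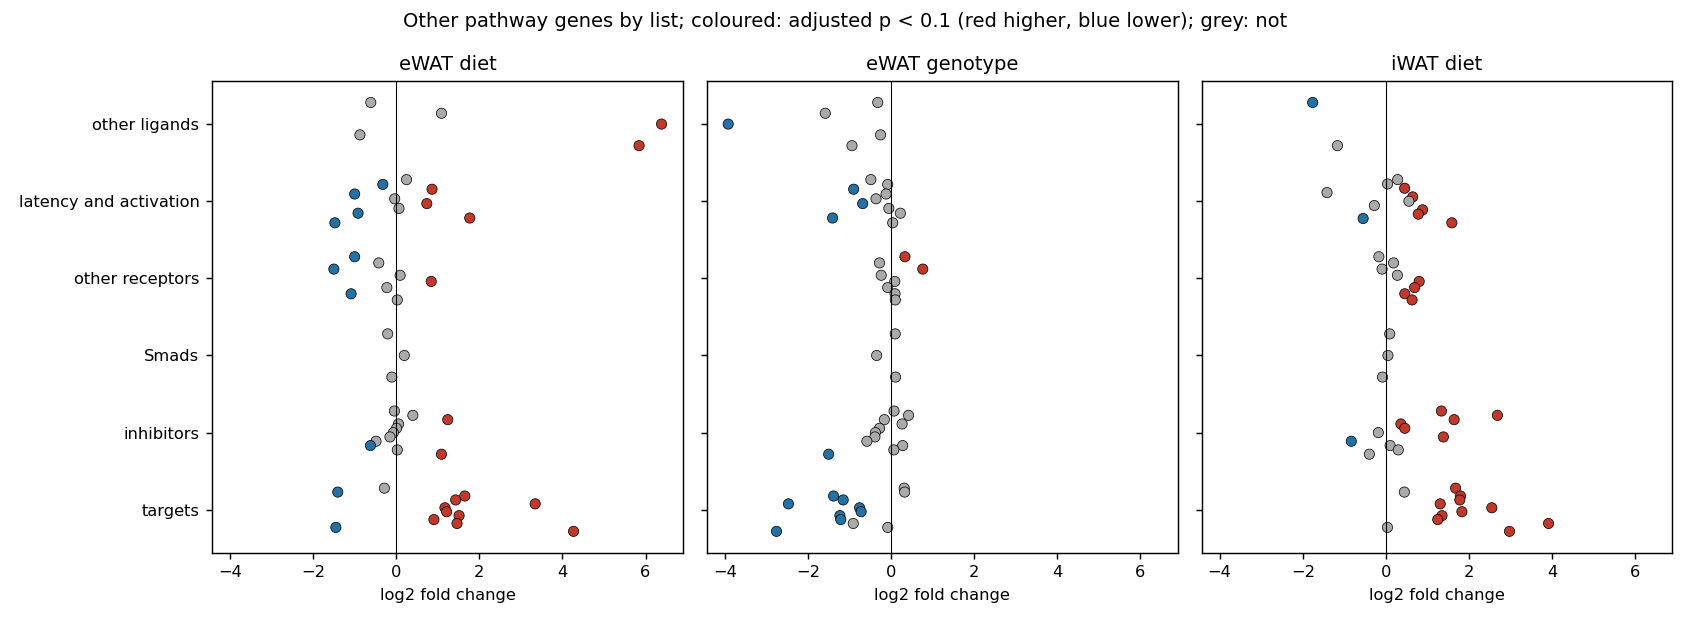
Log2 fold change of each other pathway gene tested (1 point per gene, spread vertically within its list only for legibility) for diet and genotype in eWAT and diet in iWAT, in red where called higher at an adjusted p under 0.1, blue where called lower and grey otherwise. Targets have 9 red and 2 blue points for diet in eWAT and 8 blue for genotype. The 2 ligands farthest to the right, Gdf3 and Mstn, were at or near 0 in ND-fed eWAT, so their fitted fold changes are not reliable sizes.

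Over the 6 group means, centred on the log2 scale, the genes whose pattern lay nearest to *Pmepa1* were *Gm5627* (root mean square difference 0.147), *Phlda3* (0.233), *Paqr9* (0.268), *Rasd1* (0.287) and *Bmp3* (0.297), against a median of 1.17 over 15034 genes. None of the other 9 genes was among these. For *Tgfb1* they were *Arrb2* (0.0727), *Il13ra1* (0.093) and *Ptger4* (0.0971), for *Fst* *Bgn* (0.138), *Sox4* (0.15) and *Cygb* (0.153), for *Tgfbr1* *Gnpda1*, *Wdr1* and *Atp13a2*, and for *Tgfb3* *Osr1*, *Ampd3* and *Pih1d2*, with *Tgfb2* the next. Exons of *Tgfb2*, *Tgfb3* and *Fst* share 124, 420 and 115 bases with genes on the opposite strand, and the strand setting of the counting is not given in the sources used here.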

How the data were processed

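Per the study's methods, directional mRNA libraries of whole fat depots were sequenced, trimmed with cutadapt and aligned with STAR to GRCm38. The authors deposited raw read counts per gene for each library, with cDNA lengths and FPKM values. The program and strand setting of the counting are not given in the sources used here. Counts were used as deposited, and the deposited FPKM only to check them. Reads outside genes (6.41 to 11.88%) and ambiguous reads (1.52 to 2.07%) were left out, leaving 31.41 M to 52.34 M per library.

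Genes averaging 1 CPM or more in a depot (over all 25 libraries for depot comparisons) were fitted with edgeR 4.0.16 (R 4.3.3) by the quasi-likelihood test with TMM factors, 3 groups per depot fit, and called at a Benjamini-Hochberg adjusted p under 0.1. The fit was tested on simulated data. *Inhba* in iWAT was tested by an exact permutation test. Alternatives were DESeq2 1.42.0, other filters and scalings, a replicate block, number series as a term and leaving out each library. Leaving out the 4 libraries in which epididymis, muscle or epithelial markers summed to over 500 CPM, and number series as a term for the pathway and marker lists, were chosen after seeing the data. The genes and lists were chosen with earlier results of these data known. Pathway genes named are a fixed set (*Fstl3*, *Acvr1c*, *Smad3*, *Smad7*, *Skil*, *Ccn2*, *Thbs1* and 1 gene not reported here) and, per list, comparison and direction, the called gene with the smallest adjusted p at a mean of 5 CPM or more. Likeness was the root mean square difference of centred log2 group means.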

Additional observations from a re-analysis of the deposited data

Results flagged for a closer look

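Dixon's test on the 10 genes in 40 groups of 4 or 5 libraries singled out 4 values, and chance alone singles out about 1 in 20 groups. *Inhba* stood at 6.14 CPM in ND-fed eWAT library 1, a gap of 0.875 of the group's range. *Tgfbr1* stood at 109 CPM in HFD-fed WT eWAT library 1 (0.713). *Pmepa1* stood at 52.7 CPM in ND-fed eWAT library 4 (0.933) and at 1027 CPM in *Acod1*-/- eWAT library 2 (0.75).

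For 13 of the named pathway genes the diet difference, eWAT minus iWAT, passed an adjusted p under 0.1 (edgeR's quasi-likelihood test), as for 29.0% of all genes. The fixed set was chosen with earlier results known, and the other genes were named by their calls in 1 comparison. The test thus reuses values that picked the genes, so the differences are a description, and the 13 are not read against the 29.0%. In *Ltbp4* (-1.67, SE 0.301), *Thbs1* (-3.03, SE 0.938) and *Nrros* (2.35, SE 0.392) the diet differences had opposite signs in the depots and both were called. *Lrrc32*, named after its values were seen, did the same (-1.003 in eWAT and 0.65 in iWAT). The difference was 1.04 for *Ltbp2*, -0.791 for *Ltbp3*, -0.578 for *Tgfbr3*, -0.804 for *Acvr1*, -1.38 for *Acvr1c*, -2.26 for *Fstl3*, -0.693 for *Smurf1*, 1.51 for *Tgif1*, -1.83 for *Ccn2* and -1.46 for *Tagln*. Cell type markers also moved differently with diet in the depots. Of 6 endothelial markers, 5 were called lower in eWAT and 6 higher in iWAT, the signs of *Ltbp4*, *Thbs1* and *Lrrc32*. With number series as a term, 3 endothelial markers were called lower in eWAT and 2 higher in iWAT. All 7 B and T cell markers were called lower in iWAT, and none was called lower in eWAT. The part of these cell types in the differences was not tested.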

How the results depend on the processing

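Of the 10 genes, 7 were called for diet in eWAT, and 3 with number series as a term (5139 genes in all, against 7730; 6 to 8 when single libraries were left out). For genotype in eWAT 6 were called (4 to 6). For diet in iWAT 5 were called, 3 with number series as a term, 3 with the replicate block, and 2 to 5 without single libraries. For genotype in iWAT 0 were called, 1 with a minimum of 1 CPM in every library (91 genes in all), 2 by DESeq2 (1072), 3 with the HFD-fed libraries of the lower-numbered series alone (2157), and 0 to 2 without single libraries (2664 genes in all without *Acod1*-/- library 3). For the 54 pathway genes in iWAT by genotype the count was 0, 4 by DESeq2, and 0 to 12 without single libraries. Between depots, *Inhba* included, 3 to 4 (ND) and 3 to 5 (HFD) were called without single libraries. Signs turned only for small differences that were not called. *Tgfb2* was 0.143 for diet in eWAT with number series as a term and -0.315 to 0.0421 for genotype without single libraries. *Tgfb3* for genotype in eWAT was -0.0155 with no filter and -0.0411 to 0.0847 without single libraries, and *Pmepa1* was -0.0176 to 0.391. *Tgfbr1* was 0.00755 for genotype in iWAT with the replicate block, and between depots on the ND 0.00746 with no filter, 0.000584 with the 2 groups alone and -0.115 to 0.0951 without single libraries. *Tgfbi* between depots on the HFD was -0.0214 to 0.169 without single libraries, and *Inhba* for genotype in iWAT was -0.00513 CPM without TMM. The cause was not tested. *Tgfbi* for genotype in eWAT was also lost with the 2 groups alone (adjusted p = 0.132) and with no filter (0.118), and *Inhbb* with the replicate block (0.102). Same-numbered libraries of a depot deviated together in some pairs and not in others (22 pairs, r from -0.304 to 0.313, 12 over 0.1). Between depots, same-numbered libraries of a group gave r from -0.093 to 0.489. The numbers were not taken to pair the mice, and the labels do not say whether both depots came from the same mice.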
